A study of Drosophila melanogaster with 6 samples.

Results

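The 47 genes described here encode the subunits of the Drosophila proteasome. They were chosen by name alone, as every gene whose symbol began with Prosalpha or Prosbeta, or with Rpn or Rpt followed by a number, out of 16508 genes in the tables. Of these, 32 are the constitutive subunits and 15, whose symbols end in T or R with or without a number, are the testis paralogs. All 47 reached the count minimum for testing.

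The libraries were made from poly(A) RNA of whole instar 3 larvae, with 40 larvae in each. Of the 6 libraries, the labels give 3 as wild-type and 3 as crol-KO. The wild-type strain was Oregon. The crol-KO line carried a deletion in crol (crooked legs, a zinc finger protein) made with CRISPR/Cas9. The injected embryos were of a stock that carries an Act5C-Cas9 transgene and mutant alleles of y, of w (w1118) and of DNAlig4. The line was crossed to y-w1118 flies and kept over a CyO balancer, which carries a Tb transgene with the w[+mC] marker. Homozygotes die mostly as pharate adults, and Crol protein supplied by the mother remains in them. The groups therefore differ in stock as well as in crol, and genotype and strain cannot be told apart.

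The labels were checked first. The tables bear names with the opposite genotype to the sample labels. The crol transcript was at 63.3, 60.6 and 73.2 CPM (counts scaled to the normalized library size) in the labelled wild-type and at 42.8, 39.1 and 37.0 CPM in the labelled crol-KO (log2 fold change -0.73, SE 0.12, edgeR quasi-likelihood test with Benjamini-Hochberg adjustment over all genes tested, adjusted p = 0.0043). It was present in every library, and with a correction for transcript length its difference was -0.14 (adjusted p = 0.63). The paper describes the deletion as removing coding sequence of crol, so a level this high is not that of a full loss. The labels do not say whether the larvae were homozygous, and the source of the remaining crol reads was not tested. The white gene w carries the w1118 allele in the stocks used for the deletion line. Its transcript was at 0.56 to 0.82 CPM in the labelled wild-type and at 15.2 to 17.9 CPM in the labelled crol-KO. This direction goes against Oregon and w1118 taken alone. The balancer of the deletion line carries the w[+mC] marker, and its part in the w values was not tested. Every direction below is therefore that of the libraries labelled crol-KO over those labelled wild-type. The libraries held 23637969 to 49236787 counts. Each group has 3 samples, so that a permutation test of a single value could not go below p = 0.10. Of 9 markers of larval tissues, 1 rose and 3 fell, where 15.3% of all genes tested rose and 17.8% fell. The gut gene Jon65Aiii rose (1.95, adjusted p = 0.0011) and the neuron gene elav fell (-0.98, adjusted p = 0.0028). Of the 3 fat body genes among the markers, Fbp1 (-2.15) and Lsp1alpha (-1.44) fell and Lsp2 was at 0.28 (adjusted p = 0.39). In whole larvae, fewer cells of a type and less RNA per cell cannot be told apart.

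The proteasome degrades proteins tagged with ubiquitin in every cell. Its 20S core is a barrel of stacked rings, in which the alpha subunits form the outer gates and the beta subunits the inner chamber, with the cutting sites on Prosbeta1, Prosbeta2 and Prosbeta5. The 19S regulatory particle caps the barrel. Its base holds the Rpt ATPases, which unfold the substrate and push it into the core, with the scaffolds Rpn1 and Rpn2 and the ubiquitin receptors Rpn10 and Rpn13, and its lid holds the deubiquitinase Rpn11 and further Rpn proteins. In Drosophila males, several subunits have a second gene that is used mainly in the germline of the testis.

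Few constitutive subunits differed between the labelled groups. Of 32 genes, 1 rose (Prosalpha3) and 1 fell (Rpn6) at an adjusted p under 0.05, where 15.3% of all 12434 genes tested rose and 17.8% fell. None changed past the further threshold of an absolute log2 fold change above 1, where 6% of all genes rose and 7.55% fell. At an unadjusted p under 0.05 there were 7 of the 32 genes, where 5668 of all 12434 were. DESeq2 gave 2 higher and 1 lower, where it gave 2121 higher and 2224 lower over all genes. The median log2 fold change of the 32 genes was 0.15, against -0.05 over all genes tested. Apart from Prosalpha1, treated separately below, the log2 fold changes ran from -0.48 to 0.51, and the 95% interval of each of these 31 genes lay inside the range from -1 to 1. Smaller changes may have gone undetected with 3 libraries a group. The few calls changed as single libraries were left out, and so did the counts over all genes. The count of constitutive genes that rose was 0 without wild-type replicate 1, wild-type replicate 2, crol-KO replicate 2 or crol-KO replicate 3. It was 5 without wild-type replicate 3 and 3 without crol-KO replicate 1. Rpn6 lost its call without wild-type replicate 1 or 3 or crol-KO replicate 3, but its log2 fold change stayed between -0.51 and -0.40. Over all genes, 1900 rose with every library kept. Without wild-type replicates 1, 2 and 3 in turn, 1104, 1880 and 2252 rose. Without crol-KO replicates 1, 2 and 3 in turn, 1565, 1126 and 1012 rose. Over all genes 2212 fell with every library kept, and 1223, 2155 and 1101 in the 3 fits where Rpn6 lost its call.

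**Figure D1:**
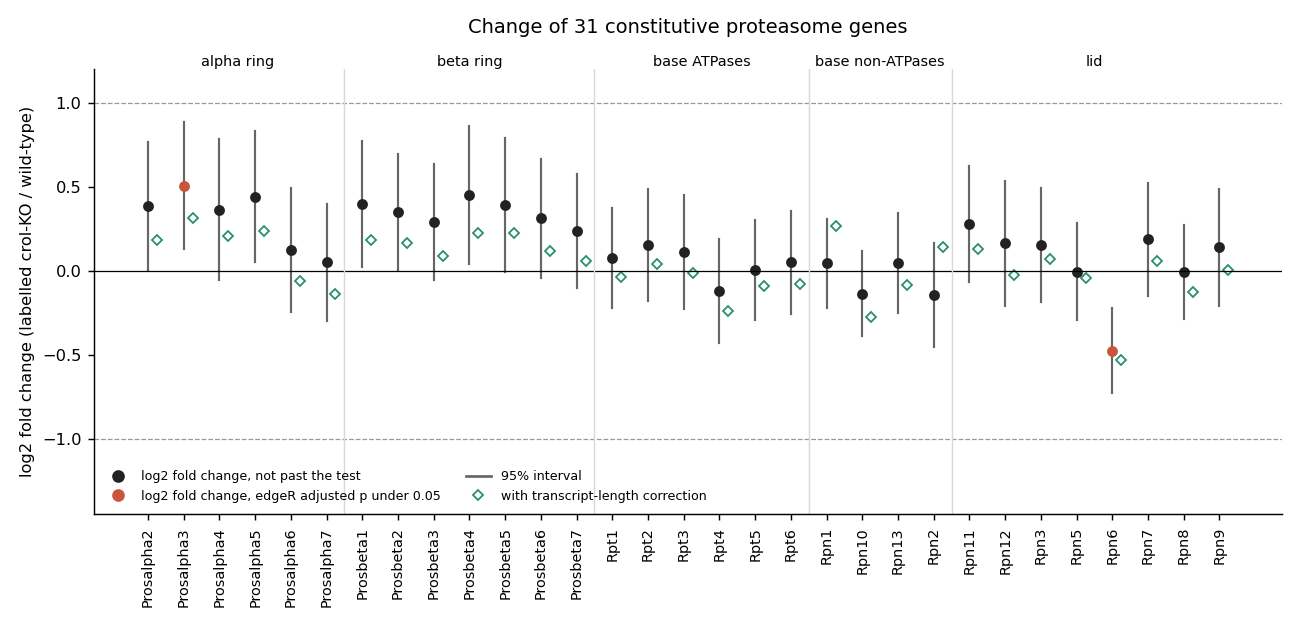
Log2 fold change (vertical axis, labelled crol-KO over labelled wild-type, 3 libraries each) of the 31 constitutive genes other than Prosalpha1, by subcomplex, with bars for the 95% interval, open diamonds for the values after the transcript-length correction and dashed lines at -1 and 1. Before the correction all 13 genes of the 20S core lie above 0, by 0.05 to 0.51, while those of the 19S particle lie on both sides, and Rpn6 is the lowest at -0.48.

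Levels of different genes were compared as TPM (transcript abundance scaled for transcript length and to the library total). In each of the 6 libraries, every 20S gene other than Prosalpha1 stood above all 18 genes of the 19S particle chosen by name. The gap was narrow. In wild-type replicate 1 the lowest 20S gene was at 114.5 TPM and the highest of these 19S genes at 101.6. In crol-KO replicate 2 these were 87.3 and 73.3. Sem1, a small lid subunit outside the naming rule, stood above all of these 20S genes in every library. It was at 305.4, 325.0 and 289.0 TPM in the labelled wild-type and at 152.3, 158.0 and 172.0 TPM in the labelled crol-KO. Within the 20S core the 13 genes differed by no more than 1.58-fold in any library (1.31-fold in wild-type replicate 1), and within the 19S particle the 18 genes differed by 1.81-fold to 3.19-fold.

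The highest mean level was that of Prosalpha2, an alpha ring subunit, with 149.7, 165.9 and 154.7 TPM in the labelled wild-type and 122.8, 130.1 and 130.8 TPM in the labelled crol-KO. Prosbeta4 (mean 136.3 TPM), Prosbeta5 (135.7), Prosalpha5 (134.0) and Prosalpha3 (131.3) followed. The ranges of these neighbours over all libraries overlapped, and their order was not tested. The lowest apart from Prosalpha1 were the large scaffolds Rpn1 (41.9 TPM) and Rpn2 (36.8). Rpn2 was at 39.7, 64.3 and 38.1 TPM in the labelled wild-type and at 29.6, 23.0 and 26.4 TPM in the labelled crol-KO, so wild-type replicate 2 was far above the other 5 libraries. Together the 32 genes took 0.31% to 0.36% of all transcripts (as TPM) in the labelled wild-type and 0.23% to 0.24% in the labelled crol-KO.

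The direction of the group depended on the scale. On the TPM scale all 31 constitutive genes other than Prosalpha1 were lower in the labelled crol-KO with no overlap between the groups. So were 7531 of the 12434 genes tested, and the median of all genes moved to -0.48 on the log2(TPM + 1) scale. With limma on log2(TPM + 1), 0 of the 32 rose and 24 fell, with a median of -0.52, close to that of all genes. Of all 12434 genes, 437 rose and 5844 fell in this fit. The 20 most abundant genes took 24.3%, 21.8% and 24.96% of TPM in the labelled wild-type and 28.8%, 33.7% and 31.2% in the labelled crol-KO, and the part of this shift in the TPM values was not tested. The CPM values below were scaled by TMM, which sets the bulk of genes equal. On that scale 2 constitutive genes (Rpn6 and Rpn10) were lower with no overlap between the groups and 1 (Prosalpha3) was higher, where 26.5% of all genes were lower and 23.7% higher in this way.

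**Figure D2:**
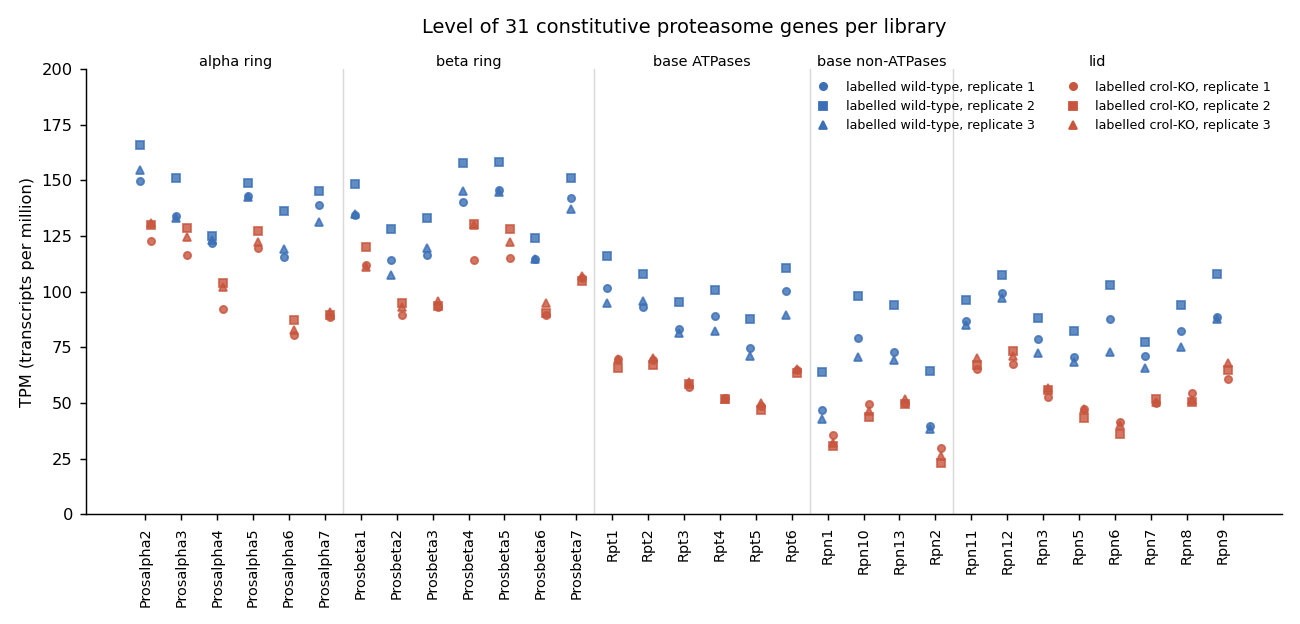
TPM (vertical axis) of the 31 constitutive genes other than Prosalpha1 in each library, by subcomplex, with labelled wild-type in blue and labelled crol-KO in red and a marker shape for each replicate number. Among these 31 genes, those of the 20S core stand above those of the 19S particle in every library. For every gene the red points lie below the blue ones on this scale.

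The alpha ring showed a median log2 fold change of 0.38, with all 7 values above 0, although Prosalpha6 (-0.06) and Prosalpha7 (-0.14) were below 0 with the length correction and all but Prosalpha1 were lower on the TPM scale. Prosalpha3 was the only one to rise. It was at 110.6, 102.7 and 128.0 CPM in the labelled wild-type and at 132.9, 190.9 and 161.1 CPM in the labelled crol-KO. The groups did not touch, but the highest wild-type library and the lowest crol-KO library were near to each other. The log2 fold change was 0.51 (SE 0.16, adjusted p = 0.047), and with the length correction it was 0.31 (adjusted p = 0.10). Prosalpha2 gave 116.3, 106.0 and 139.8 CPM in the labelled wild-type and 131.5, 181.9 and 159.2 CPM in the labelled crol-KO. These groups overlapped, and the log2 fold change of 0.38 (SE 0.16) did not pass (adjusted p = 0.11). Among the remaining alpha genes, Prosalpha5 (0.44), Prosalpha4 (0.36), Prosalpha6 (0.12) and Prosalpha7 (0.05) did not pass.

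Prosalpha1 could not be read on its own. Its CPM were 1.52, 0 and 4.404 in the labelled wild-type and 8.05, 5.25 and 2.58 in the labelled crol-KO, far under those of the other alpha genes, and its log2 fold change of 1.46 had an SE of 1.05 (adjusted p = 0.31). Its expected counts were fractional, as were those of Rpt3R, whereas the other 31 constitutive genes had whole counts in every library (to within 0.005). The next gene on chromosome arm 2R, CG30382 (now Prosalpha1R), is a near-identical copy, and RSEM gave Prosalpha1 between 0% and 4.98% of the counts of the pair. The sum of both, an alternative chosen after seeing the data, was 112.7, 102.9 and 131.2 CPM in the labelled wild-type, within the range of the other alpha genes, and 161.7, 288.8 and 218.5 CPM in the labelled crol-KO. The groups were well apart, although the crol-KO libraries spread widely. The log2 fold change of the sum was 0.95 (SE 0.22, adjusted p = 0.014), which is above that of every other constitutive gene. How the 2 genes divide this sum is uncertain.

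The beta ring had a median log2 fold change of 0.35, again with all 7 values above 0, and none passed. They stayed above 0 with the length correction (0.06 to 0.23) and were lower on the TPM scale. Prosbeta1, which carries the caspase-like site, was at 96.1, 87.1 and 112.2 CPM in the labelled wild-type and at 110.2, 154.1 and 124.3 CPM in the labelled crol-KO (log2 fold change 0.40, SE 0.16, adjusted p = 0.095). Prosbeta2, with the trypsin-like site, was at 101.0, 93.1 and 110.4 CPM and at 108.8, 150.3 and 128.8 CPM in the same order (0.35, SE 0.15, adjusted p = 0.10). Prosbeta5, with the chymotrypsin-like site, was at 141.0, 126.0 and 162.9 CPM and at 153.7, 224.4 and 185.5 CPM (0.39, SE 0.17, adjusted p = 0.12). In all 3 catalytic genes crol-KO replicate 2 was the highest library and crol-KO replicate 1 fell among the wild-type libraries. Prosbeta4, a structural subunit, had the largest value of the ring, at 91.5, 84.6 and 110.8 CPM against 103.5, 154.7 and 133.8 CPM (0.45, SE 0.18, adjusted p = 0.085). Its groups overlapped as well.

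The 19S particle was centred near 0, with a median log2 fold change of 0.05 over 18 genes. The 6 Rpt ATPases ran from -0.12 (Rpt4) to 0.15 (Rpt2), and none passed. In the base, the ubiquitin receptor Rpn10 was at 93.6, 95.2 and 96.8 CPM in the labelled wild-type and at 80.8, 93.1 and 85.8 CPM in the labelled crol-KO. The groups did not overlap but lay within a few CPM of each other, and the log2 fold change of -0.14 (SE 0.11) did not pass (adjusted p = 0.36). Rpn2, the scaffold, was at 119.8, 159.7 and 133.7 CPM and at 123.5, 125.2 and 124.8 CPM (-0.15, SE 0.13, adjusted p = 0.43). Here the groups overlapped, the value rested on wild-type replicate 2, and without that library it was 0.0054.

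In the lid, Rpn6 was the only subunit that fell. Rpn6 bridges the lid and the core. It was at 141.9, 136.7 and 136.5 CPM in the labelled wild-type and at 92.5, 104.9 and 101.2 CPM in the labelled crol-KO. Both groups were tight and there was a wide gap between them. The log2 fold change was -0.48 (SE 0.11, adjusted p = 0.015), and it was -0.53 with the length correction (adjusted p = 0.0042). Rpn11, which removes the ubiquitin chain, had the highest value of the lid and did not pass: it was at 90.6, 82.5 and 102.9 CPM against 93.8, 125.9 and 114.8 CPM (0.28, SE 0.15, adjusted p = 0.19). The remaining 6 lid genes lay between -0.01 (Rpn5 and Rpn8) and 0.19 (Rpn7). Sem1, a small lid subunit outside the naming rule, was at -0.25 and did not pass, but it passed with the length correction (-0.57, adjusted p = 0.0029).

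The balance of core and regulatory particle transcripts differed between the labelled groups. The mean TPM of the 13 core genes over that of the 18 regulatory particle genes was 1.64, 1.53 and 1.74 in the labelled wild-type and 1.92, 2.10 and 1.99 in the labelled crol-KO. Each crol-KO library was above each wild-type library. On the log2 CPM scale the difference of the means was -0.02, -0.13 and 0.07 in the labelled wild-type and 0.20, 0.35 and 0.27 in the labelled crol-KO. The median log2 fold changes of the 2 subcomplexes, 0.37 and 0.05, were compared as a description, with no test.

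**Figure D3:**
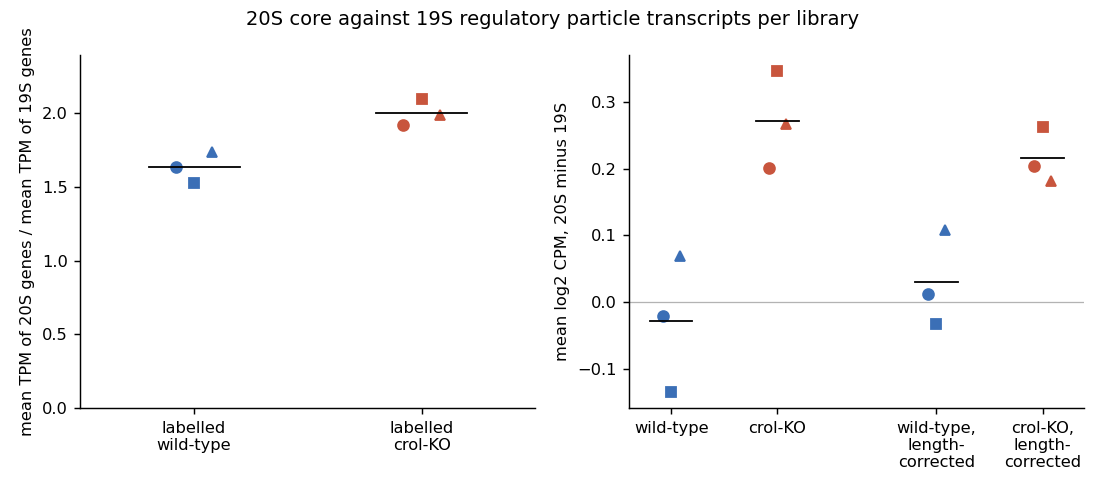
Left, ratio of the mean TPM of 13 genes of the 20S core to that of 18 genes of the 19S particle in each library. Right, the same balance as a difference of mean log2 CPM, before and after the transcript-length correction. Points are libraries, with a marker shape for each replicate number, and bars are means of 3. The labelled crol-KO libraries lie above the labelled wild-type libraries on each scale, from 1.92 to 2.10 against 1.53 to 1.74 for the ratio.

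Transcript length moved with this difference. The 20S transcripts had a median length of 968 bases and the 19S transcripts one of 1461 bases. Over all 12434 genes, shorter transcripts tended to higher log2 fold changes (Spearman's rho -0.37 across genes of the same 6 libraries). Over the 31 members rho was -0.80, a value that takes in the gap between the 2 subcomplexes. It was -0.43 within the 13 genes of the 20S core and -0.56 within the 18 of the 19S particle. All genes tested that lay in the length range of the 20S genes, 1981 in number, had a median of 0.15, and the 7143 in the range of the 19S genes one of 0.01. After the length correction the medians of the 20S and 19S genes were 0.18 and -0.03. The difference in log2 CPM between the subcomplexes was then 0.01, -0.03 and 0.11 in the labelled wild-type and 0.20, 0.26 and 0.18 in the labelled crol-KO, again without overlap. The distance between the 2 groups was smaller than before the correction. RNA quality was not measured here, and its part was not tested.

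**Figure D4:**
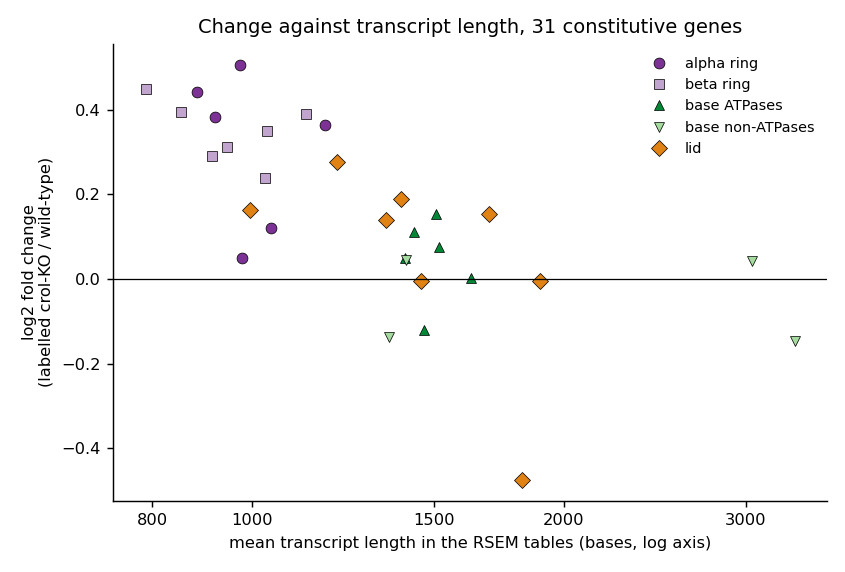
Log2 fold change (vertical axis, labelled crol-KO over labelled wild-type) against mean transcript length in bases (log axis) for the 31 constitutive genes other than Prosalpha1, with a marker for each subcomplex. The shorter 20S transcripts sit at the upper left, with a median of 0.36 for these 13 genes, and Rpn6 is the lowest at -0.48.

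The subunits varied together between libraries of a group. In all 31 constitutive genes other than Prosalpha1, crol-KO replicate 1 had the lowest CPM, replicate 3 came next and replicate 2 was the highest, an order held by 21.0% of all genes tested. In 25 of the 31, and in all 13 of the core, wild-type replicate 2 was lowest, replicate 1 came next and replicate 3 was highest, an order held by 30.8% of all genes. The cytosolic ribosomal protein genes held the same orders, with summed CPM of 102375, 82506 and 124815 in the labelled wild-type and 143811, 189134 and 167181 in the labelled crol-KO. Mean transcript length weighted by TPM ran the other way, at 986, 1082 and 958 bases and at 946, 853 and 888 bases. Crol-KO replicate 2 also had the most counts and the largest share of TPM in the top 20 genes, and crol-KO replicate 3 had the fewest counts. The part of these in the order was not tested.

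Other abundant complexes were set beside the proteasome. Of 92 cytosolic ribosomal protein genes, 57 rose and 0 fell (median 0.64), and with the length correction 29 rose (median 0.42). Of 24 genes of the V-ATPase, the proton pump of acidic organelles, 11 rose and 0 fell (median 0.41), and with the length correction 9 rose (median 0.40). Over all genes 15.3% rose and 17.8% fell. The share of constitutive proteasome genes that rose (1 of 32) was lower than in either group, and the difference between groups of genes was not tested. The groups were also built differently. Both comparison groups were taken by name with no paralogs set apart, unlike the constitutive proteasome genes. Their lowest genes were at 0.08 to 1.2 TPM per library in the V-ATPase group and at 0.7 to 2.25 TPM in the ribosomal group.

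The testis paralogs were far less abundant than the constitutive genes, with 0.19 to 6.87 TPM per library. In the labelled crol-KO, a paralog's mean TPM was between 0.34% (Prosbeta2R1 and Prosalpha3T) and 10.2% (Rpt4R) of that of its constitutive counterpart. Of the 15 genes, 5 rose and 0 fell, beside 15.3% and 17.8% of all genes. The 1 that passed the fold threshold was Rpt4R, a share near the 6% of all genes that rose past it. The paralogs that rose were mostly ATPase and lid genes: 4 of the 5 of the 19S particle rose (median log2 fold change 0.75) and 1 of the 10 of the 20S core (median -0.22). Whether the 2 kinds of paralog differ was not tested. The counts changed as single libraries were left out: 7 rose and 5 passed the fold threshold without wild-type replicate 2. Without crol-KO replicate 2, 3 rose, and 2 rose without wild-type replicate 1, crol-KO replicate 1 or crol-KO replicate 3. Over all genes, 1900 rose with every library kept. The counts over all genes were 1880 and 1126 without replicate 2 of wild-type and of crol-KO. They were 1104, 1565 and 1012 in the 3 fits where 2 paralogs rose. With the length correction 3 rose (Rpt3R, Rpt4R and Rpt6R), and with limma on log2(TPM + 1) none did. Of all genes, 2073 and 437 rose in these 2 fits.

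Rpt4R, the paralog of the base ATPase Rpt4, was at 3.85, 4.56 and 3.73 CPM in the labelled wild-type and at 10.3, 9.997 and 9.86 CPM in the labelled crol-KO. The groups were tight and far apart. The log2 fold change was 1.31 (SE 0.14, adjusted p = 0.00068), and it lay between 1.29 and 1.44 as each library was left out. Rpt4 itself gave -0.12 and did not pass. On the log2(TPM + 1) scale Rpt4R was at 0.51 and no longer passed (limma, adjusted p = 0.057).

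Rpt3R was at 6.36, 7.03 and 5.30 CPM in the labelled wild-type and at 10.6, 9.74 and 11.1 CPM in the labelled crol-KO (log2 fold change 0.75, SE 0.15, adjusted p = 0.0079). Its counts were fractional in some libraries, so a few reads were shared with other genes. Rpt6R was at 3.07, 4.64 and 3.11 CPM and at 6.66, 5.53 and 6.99 CPM (0.82, SE 0.21, adjusted p = 0.022). The groups of both genes were apart, with wild-type replicate 2 and crol-KO replicate 2 nearest to each other. The lid paralog Rpn12R was at 3.12, 3.74 and 2.41 CPM and at 5.37, 4.41 and 4.90 CPM (0.66, SE 0.20, adjusted p = 0.041). Rpn13R, the paralog of the ubiquitin receptor, was at 0.88, 1.73 and 0.84 CPM and at 1.23, 0.86 and 1.09 CPM (-0.13, SE 0.35, adjusted p = 0.80), and its groups overlapped fully.

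Among the core paralogs, Prosbeta2R2 rose. It was at 1.87, 3.44 and 2.24 CPM in the labelled wild-type and at 5.89, 4.31 and 3.77 CPM in the labelled crol-KO (0.88, SE 0.28, adjusted p = 0.043). The groups were separate but wild-type replicate 2 came near to crol-KO replicate 3. Prosbeta4R1 was also separate, at 1.55, 2.37 and 1.18 CPM against 2.85, 2.74 and 3.86 CPM (0.87, SE 0.30), and did not pass (adjusted p = 0.055).

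Prosbeta5R2, a paralog of a catalytic subunit, was at 1.63, 3.36 and 1.74 CPM and at 3.19, 2.74 and 4.11 CPM (0.56, SE 0.32, adjusted p = 0.21). The other paralog of that subunit, Prosbeta5R1, was at 1.58, 2.83 and 0.81 CPM and at 1.41, 0.52 and 0.94 CPM (-0.87, SE 0.51, adjusted p = 0.22). The 2 copies thus pointed in opposite directions, although neither passed and the difference between them was not tested. Prosbeta2R1 was at -0.87 (SE 0.45, adjusted p = 0.17) and did not pass, whereas Prosbeta2R2 rose.

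The 4 further core paralogs with a mean of at least 1 CPM overlapped between the groups. Prosalpha6T was at 1.78, 3.03 and 1.26 CPM and at 1.44, 1.83 and 2.53 CPM (-0.10, SE 0.37). Prosalpha4T1 was at 1.197, 1.89 and 0.95 CPM and at 1.003, 0.97 and 1.59 CPM (-0.22, SE 0.34). In these, as in the next pair, wild-type replicate 2 was the highest of its group. Prosalpha4T2 was at 1.34, 2.73 and 0.93 CPM and at 1.44, 0.99 and 1.83 CPM (-0.26, SE 0.43). Prosbeta4R2 was at 1.72, 2.35 and 0.93 CPM and at 1.75, 0.84 and 1.78 CPM (-0.22, SE 0.42). Prosalpha3T was at -0.63 (SE 0.64). Wild-type replicate 2 decided the sign of several: without it Prosalpha6T was at 0.35, Prosalpha4T1 at 0.14, Prosalpha4T2 at 0.33, Prosbeta4R2 at 0.15 and Rpn13R at 0.33.

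**Figure D5:**
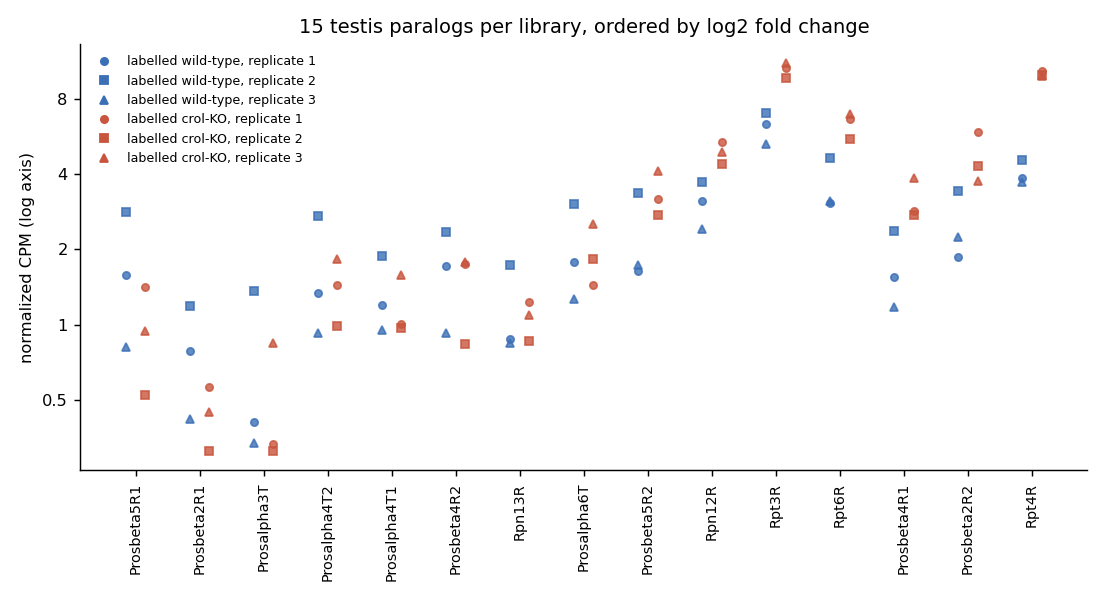
Normalized CPM (vertical log axis) of the 15 testis paralogs in each library, ordered by log2 fold change, with labelled wild-type in blue, labelled crol-KO in red and a marker shape for each replicate number. Wild-type replicate 2 (blue squares) is the highest blue point for every gene, and Rpt4R, at the right, has the widest gap, with 3.73 to 4.56 against 9.86 to 10.3 CPM.

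Markers of male germ cells were read beside these genes. All 15 paralogs were highest in wild-type replicate 2 among the labelled wild-type libraries (41.7% of all genes tested were), and 12 of 15 were lowest in crol-KO replicate 2 among the labelled crol-KO libraries (37.1% of all genes). The summed level of the 22 testis markers found was likewise highest in wild-type replicate 2 and lowest, within its group, in crol-KO replicate 2, with 103, 162 and 70.0 CPM in the labelled wild-type and 111, 82.7 and 109 CPM in the labelled crol-KO, and no marker was at 0 in any library. Over the 21 markers tested the median log2 fold change was -0.12, with 10 values above 0 and 11 below. Of these, 6 rose (15.3% of all genes did) and all 6 passed the fold threshold (6% of all genes): aly (1.78), tomb (1.75), nht (1.501), sa (1.497), can (1.24) and comr (1.08), which act in the transcription programme of spermatocytes. The one that fell was bol (-0.99), a regulator of meiosis. Of the remaining genes of the spermatocyte programme, mia (0.22), topi (0.86) and Taf12L (-0.14) did not pass. Nor did genes of later stages such as Mst35Ba (-1.15, adjusted p = 0.05005), dj (-0.91), Mst35Bb (-0.84) and Mst98Cb (-0.62). With the length correction 8 markers rose and 2 fell, where 2073 and 2006 of all 12434 genes did. In that fit topi (1.01, adjusted p = 0.033) and kl-2 (1.93, adjusted p = 0.0090) also rose. Mst35Ba also fell (-1.41, adjusted p = 0.032). The share of males or of germ cells in each sample was not measured, and their part in the paralog values was not tested.

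Genes that work with the proteasome were read from 5 lists, whose counts stand beside shares of 15.3% higher and 17.8% lower over all genes. Of 7 genes for assembly factors, regulators and bound enzymes, 1 rose, the activator REG (57.6 to 80.3 CPM in the labelled wild-type and 85.2 to 109.4 CPM in the labelled crol-KO, log2 fold change 0.49, SE 0.16, adjusted p = 0.046). With the length correction REG was at 0.36 (adjusted p = 0.061), and CG8858 of the same list passed instead (0.67, adjusted p = 0.00089, from -0.03 without it). Of 7 genes that deliver ubiquitinated substrates, none passed.

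Of 14 genes for ubiquitin precursors and the E1 and E2 enzymes, 2 rose and 3 fell, shares near those of all genes (15.3% and 17.8%), and with the length correction 1 rose and 5 fell. RpL40, which encodes ubiquitin fused to a ribosomal protein, rose (0.63, SE 0.19, adjusted p = 0.036), but was at 0.38 with the length correction and no longer passed (adjusted p = 0.083). The E2 gene crl, the Drosophila Ubc7, rose as well (0.45, SE 0.13, adjusted p = 0.038). The E2 enzyme ben, the Drosophila Ubc13, was at 156.7, 136.3 and 160.5 CPM in the labelled wild-type and at 99.0, 93.1 and 96.4 CPM in the labelled crol-KO. The gap between the groups was wide, and the log2 fold change was -0.65 (SE 0.12, adjusted p = 0.0056). The E2 genes UbcD2 (-0.49) and UbcD4 (-0.37) fell too, and with the length correction eff (-0.49, adjusted p = 0.012) and vih (-0.37, adjusted p = 0.012) joined them.

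Of 4 regulators of proteasome gene transcription and of their processing, none rose and 2 fell, where 17.8% of all genes fell. The factor cnc, the Drosophila counterpart of the mammalian Nrf factors, was at 133.4, 192.4 and 137.5 CPM and at 117.1, 98.1 and 105.1 CPM (-0.53, SE 0.17, adjusted p = 0.045). The groups did not overlap, but with the length correction cnc was at 0.05 (adjusted p = 0.71). Keap1, which holds cnc back, was at 10.4, 10.7 and 8.61 CPM and at 6.48, 5.48 and 5.65 CPM (-0.75, SE 0.14, adjusted p = 0.0074), and kept its call with the correction (-0.58, adjusted p = 0.0058). Of 19 autophagy genes, 0 rose and 3 fell: Atg17 (-1.06), Atg1 (-0.97) and ref(2)P (-0.60), the p62 homologue that binds ubiquitinated cargo. This share is near the 17.8% of all genes that fell. With the length correction 4 fell and 1 rose: Atg17 was at -0.37, Atg1 at -0.55 and ref(2)P at -0.54, Atg5 fell as well (-0.29, adjusted p = 0.042) and Atg2 rose (0.48, adjusted p = 0.0078).

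The constitutive genes are spread over the genome, with 10 on chromosome arm 2R, 9 on 3R, 5 on 3L, 4 on 2L and 4 on X. Prosalpha3 and Rpn6, which moved in opposite directions, are both on 2R. The paralogs lie on 3R (5), 2L (4), 2R (2), 3L (2) and X (2), with Rpt4R on 3L.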

How the data were processed

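Per the labels and the study's methods, the authors trimmed reads with Trim Galore 0.6.1, aligned them to dm3 with STAR 2.7.3a and ran RSEM 1.3.2. The authors deposited RSEM expected counts, not scaled to depth, and TPM, scaled to the library total; the transcript lengths in the same deposited tables were also used. The authors' calls used featureCounts and DESeq2 and were not used here.

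Expected counts were rounded. The test was that of edgeR 4.0.16 (R 4.3.3), on genes that reached 10 counts in 3 or more libraries (TMM, quasi-likelihood test, Benjamini-Hochberg adjustment over 12434 genes). Rose or fell means an adjusted p under 0.05. The length correction removed each library's lowess trend over log2 transcript length (span 0.3) as an offset. Alternatives were DESeq2 1.42.0, limma 3.58.1 with a pseudocount of 1 or 0.1 on log2 TPM, other normalizations and filters, and leaving out each library. The fit was tested on simulated data with 200 changed genes, fewer than passed in the data. There 5 of 67 genes with a log2 fold change of 0.5 passed, 58 of 67 with 1 and 66 of 66 with 2.

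Groups came from the sample labels. Values in every library are given for members past both thresholds, the 3 largest and 3 smallest log2 fold changes among constitutive members, the catalytic genes, Rpn11, paralogs with a mean of at least 1 CPM, the highest and lowest levels, and crol and w; others named were chosen after their values were seen. The members and lists were chosen with earlier results of these data known. Of 24 testis markers 22 were found. Chromosome arms came from the Release 6 annotation. Promoter sequences were not used here.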

Additional observations from a re-analysis of the deposited data

How the results depend on the processing

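With 3 libraries a group, changes well under the width of the 95% intervals could not be detected. Apart from Prosalpha1, testis paralogs had the fewest counts and the largest errors (median SE 0.34, against 0.15 for the constitutive genes). In the constitutive genes, 1 rose and 1 fell in the main comparison. The number that rose was 2 with DESeq2 and 4 with upper-quartile normalization, where 0 fell and the median of all genes moved from -0.05 to 0.07; it was 0 without the low-count filter, with the length correction, with the length correction and replicate block together, and at an adjusted p under 0.01, where 0 fell. It was 2 with Prosalpha1 summed with CG30382. Over all genes, 1900 rose in the main comparison and 2121 with DESeq2. With upper-quartile normalization 2540 of all genes did, without the low-count filter 1786 and with the length correction 2073. As each library was left out, 0 to 5 constitutive genes rose and 0 to 1 fell. Of all genes, 1012 to 2252 rose and 1101 to 2155 fell in these fits. With limma on log2(TPM + 1), 0 constitutive genes rose and 24 fell, and 1 fell past the fold threshold. With log2(TPM + 0.1), 0 constitutive genes rose, 21 fell and 1 passed the fold threshold. Of all genes, 437 and 432 rose and 5844 and 6083 fell on these 2 scales. The medians on these 2 scales were -0.52 and -0.53 for the constitutive genes, -0.30 and -0.30 for the 20S core and -0.62 and -0.63 for the 19S particle, against medians of all genes of -0.48 and -0.67.

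In the testis paralogs, 5 rose in the main comparison. The count was 0 on both TPM scales, 3 with the length correction, 2 with the length correction and replicate block, 2 at an adjusted p under 0.01, and 2 to 7 as each library was left out. Of all genes, 437 and 432 rose on the TPM scales, 2073 with the length correction and 1629 with the block added. As each library was left out, 1012 to 2252 of all genes rose. The number past the fold threshold was 1, and was 2 with upper-quartile normalization, 0 on both TPM scales and 1 to 5 as each library was left out. 

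The replicate numbers did not pair the libraries, since the deviations of same-numbered libraries correlated at 0.0035, -0.29 and -0.05. In the fit with a replicate block, 0 constitutive genes rose and 0 fell, and 2 paralogs rose. Of all genes, 1256 rose and 1560 fell in that fit.

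Among single genes, the sign turned on log2(TPM + 1) for Prosalpha2 (-0.29), Prosalpha3 (-0.18), Prosbeta1 (-0.28), Prosbeta2 (-0.33), Prosbeta4 (-0.24), Prosbeta5 (-0.29), Prosbeta5R2 (-0.043), Rpn11 (-0.40) and Rpn12R (-0.0028). On log2(TPM + 0.1) it turned for the same genes other than Rpn12R, at -0.29, -0.18, -0.28, -0.33, -0.25, -0.30, -0.034 and -0.40. Rpn2 turned to 0.14 with the length correction, with and without the block, and Prosalpha6T to 0.030 with upper-quartile normalization. Leaving out libraries moved Prosalpha4T1 from -0.46 to 0.14, Prosalpha4T2 from -0.49 to 0.33, Prosalpha6T from -0.32 to 0.35, Prosbeta4R2 from -0.45 to 0.15, Rpn13R from -0.26 to 0.33 and Rpn2 from -0.18 to 0.0054. The cause of each turn was not tested.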
